A study of Mus musculus with 2 samples.

Results

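*Hsd17b3*, *Hsd17b1*, *Hsd17b12* and *Srd5a1* code for enzymes that convert androgens or are related to those that do, and these 4 genes, of 32285 in the count matrix, were followed by symbol across the cell classes of the fetal mouse testis. Whole testes of E14.5 mouse embryos carrying *Nr5a1-cre* and *Rosa-tdTomato* were frozen, and their nuclei were profiled by 10x multiome, which reads RNA and open chromatin (ATAC) from the same nucleus. All nuclei share this genotype, in which Cre is driven by regulatory DNA of *Nr5a1*, a steroidogenic factor of somatic gonad cells, and tdTomato is a reporter switched on by Cre. The number of embryos in the pool was not given in the sources used here. There is 1 RNA library and 1 ATAC library, so no test between animals was possible, and every interval below is an exact 95% interval for counting error only.

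Testosterone is made from cholesterol in steps. Cholesterol is carried into the mitochondrion, cut to pregnenolone by the enzyme of *Cyp11a1*, and turned into the weak androgen androstenedione by those of *Hsd3b1* and *Cyp17a1*, all known as products of fetal Leydig cells. A 17-ketosteroid reductase then turns androstenedione into testosterone. *Hsd17b3* codes for the main testicular reductase of this kind, *Hsd17b1* for one best known for making estradiol that can also make testosterone in mice, and *Hsd17b12* for one with a second, better established role in the elongation of fatty acids. *Srd5a1* codes for a steroid 5α-reductase, which turns testosterone into dihydrotestosterone. In the fetal mouse testis the reductase step has been placed in Sertoli cells, the somatic cells of the seminiferous cords, so that androstenedione would pass from Leydig to Sertoli cells.

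After filtering, 7198 nuclei were kept with a median of 7952 RNA molecules (UMIs) and 4475 ATAC fragments, and they fell into 11 named classes, made without the 4 genes, the genes of related pathways listed below or the peaks near the 4 genes. The 839 Sertoli-like nuclei had a median of 9913 UMIs and the 794 Leydig-like nuclei 9602. Clusters were named by lists of marker genes, so high levels of these in the class of that name are no independent check. Of 7 Sertoli markers, 6 were highest in the Sertoli-like class (*Sox9* 43.8, *Aard* 165 and *Dmrt1* 260 counts per 1000000 UMIs of the class, or CPM), and *Fgf9* was highest in the supporting-like class. *Amh* was 70.6 CPM in Sertoli-like against 62.8 in immune-like nuclei, and *Dmrt1* was 175 in germ-like nuclei. All 8 Leydig markers were highest in the Leydig-like class, among them *Lhcgr*, the luteinizing hormone receptor, at 1014 CPM against 22.5 in Sertoli-like nuclei. The other large classes were 3280 progenitor-like nuclei of the interstitium and 979 germ-like nuclei, which should lack *Hsd17b3* and *Hsd17b1* and serve as the background class. The progenitor-like class was mixed, as a finer clustering named 1069 nuclei, nearly all from this class, contractile-like (*Myh11* and *Myocd* among their leading genes), with *Hsd17b3* at 4.98 CPM (3.43 to 6.998) and *Hsd17b12* at 125 (117 to 134). Among kept nuclei, 923 had a doublet score over the automatic threshold of the caller (nuclei of high doublet score, below), between 5.79% of progenitor-like and 38.1% of endothelial-like nuclei. The 4 genes and the listed pathway genes were not held out of this score, so values without such nuclei are not independent of their RNA. Several levels and ratios that moved without such nuclei are given both ways.

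*Hsd17b3* (ENSMUSG00000033122) spans chr13:64058266-64089230 on the minus strand of GRCm38. *Hsd17b1* (ENSMUSG00000019301) spans chr11:101078411-101080527 on the plus strand, *Hsd17b12* (ENSMUSG00000027195) chr2:94032689-94157964 on the minus strand, and *Srd5a1* (ENSMUSG00000021594) chr13:69573449-69611442 on the minus strand. *Srd5a1* overlaps *Nsun2* on the other strand and the noncoding *Gm17108* on its own strand, so its counts are uncertain. RefSeq promoter entries (GRCm38.p6, 250 bases before to 50 after the start) matched 3 of the 4 genes. The *Hsd17b3* entry held 3 CpG dinucleotides in 300 bases at 48.7% GC, whereas *Hsd17b12* held 23 and *Srd5a1* 24, against a median of 7 over 32851 promoters, of which 43.6% held 5 or fewer. The stretches upstream of every annotated exon, chr13:64089263-64089451 and chr2:94157965-94158159, are shown to set the CpG-poor start of a class-restricted gene beside the CpG-rich start of a broadly transcribed one. Both are written 5′ to 3′ on the minus strand, and capitals mark GGGCGG, the GC box bound by Sp factors.
Hsd17b3: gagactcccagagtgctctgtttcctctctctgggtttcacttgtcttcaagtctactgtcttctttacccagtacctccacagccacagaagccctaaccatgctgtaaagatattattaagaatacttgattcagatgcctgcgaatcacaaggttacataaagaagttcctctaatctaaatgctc
Hsd17b12: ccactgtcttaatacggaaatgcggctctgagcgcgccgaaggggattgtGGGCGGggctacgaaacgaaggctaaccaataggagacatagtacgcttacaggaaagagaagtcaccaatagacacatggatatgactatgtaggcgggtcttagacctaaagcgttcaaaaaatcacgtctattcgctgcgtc

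The GC box occurred 1 time in the full *Hsd17b12* entry, 4 times in that of *Srd5a1* and 0 times in that of *Hsd17b3*, on either strand, and 35.7% of all promoters held it. None of the 3 entries held AAGGTCA, the element of the NR5A1 type, which 4.72% of all promoters held on either strand. The same was true of AGATAA of the GATA type, which 11.2% of them held. A SOX core, ACAATG, stood in 12.6% of all promoters and in none of the 3. TATAAA, the TATA box, stood in 13.6% and likewise in none of the 3.

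*Hsd17b3* RNA was concentrated in Sertoli-like nuclei. Its level there was 749 CPM (732 to 766, 7670 UMIs), which held 82.8% of all its UMIs in kept nuclei, and the Leydig-like level was 9.66 CPM (7.73 to 11.9, 86 UMIs). The Sertoli-like level was 77.5-fold the Leydig-like (62.7 to 97.0), and 12 of 11116 genes with at least 100 UMIs over both classes had a higher ratio. *Hsd17b3* passed this minimum only through its Sertoli-like UMIs. Endothelial-like (88.6 CPM), germ-like (52.1), erythroid-like (44.8), supporting-like (39.7) and immune-like nuclei (25.1) came next, and surface epithelium-like (8.09), progenitor-like (4.60), pericyte-like (2.99) and mesonephric mesenchyme-like nuclei (2.64) were lowest. The intervals of the 3 lowest classes overlapped.

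The order below the Sertoli-like class moved with nuclei of high doublet score. Such nuclei held 97.0% of the *Hsd17b3* UMIs of germ-like, 96.6% of endothelial-like, 73.3% of Leydig-like and 17.3% of Sertoli-like nuclei. They were also rich in RNA of all genes. Outside them lay 11060560 of all 20356529 UMIs of germ-like and 488346 of 2313275 of endothelial-like nuclei. For Leydig-like nuclei it was 5829476 of 8899885, and for Sertoli-like nuclei 7031398 of 10244825. Without nuclei of high doublet score the Sertoli-like level was 902 CPM (880 to 925). The Leydig-like (3.95, 2.50 to 5.92), progenitor-like (3.83, 3.04 to 4.76), surface epithelium-like (3.67, 2.10 to 5.95) and germ-like levels (2.89, 1.98 to 4.08) then overlapped in their intervals. Sertoli-like nuclei then held 97.2% of the 6527 remaining UMIs, and the ratio to Leydig-like nuclei was 229 (152 to 361). As *Hsd17b3* was not held out of the doublet score, these values are not an independent check of its restriction. Supporting-like nuclei, a class of 88 marked by *Pax8*, kept 22.0 CPM (12.0 to 36.9, 14 UMIs) and endothelial-like nuclei 14.3 CPM (5.76 to 29.5, 7 UMIs). Erythroid-like (4.21 CPM), immune-like (3.94) and pericyte-like nuclei (1.98) then held 1 UMI each.

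**Figure D1:**
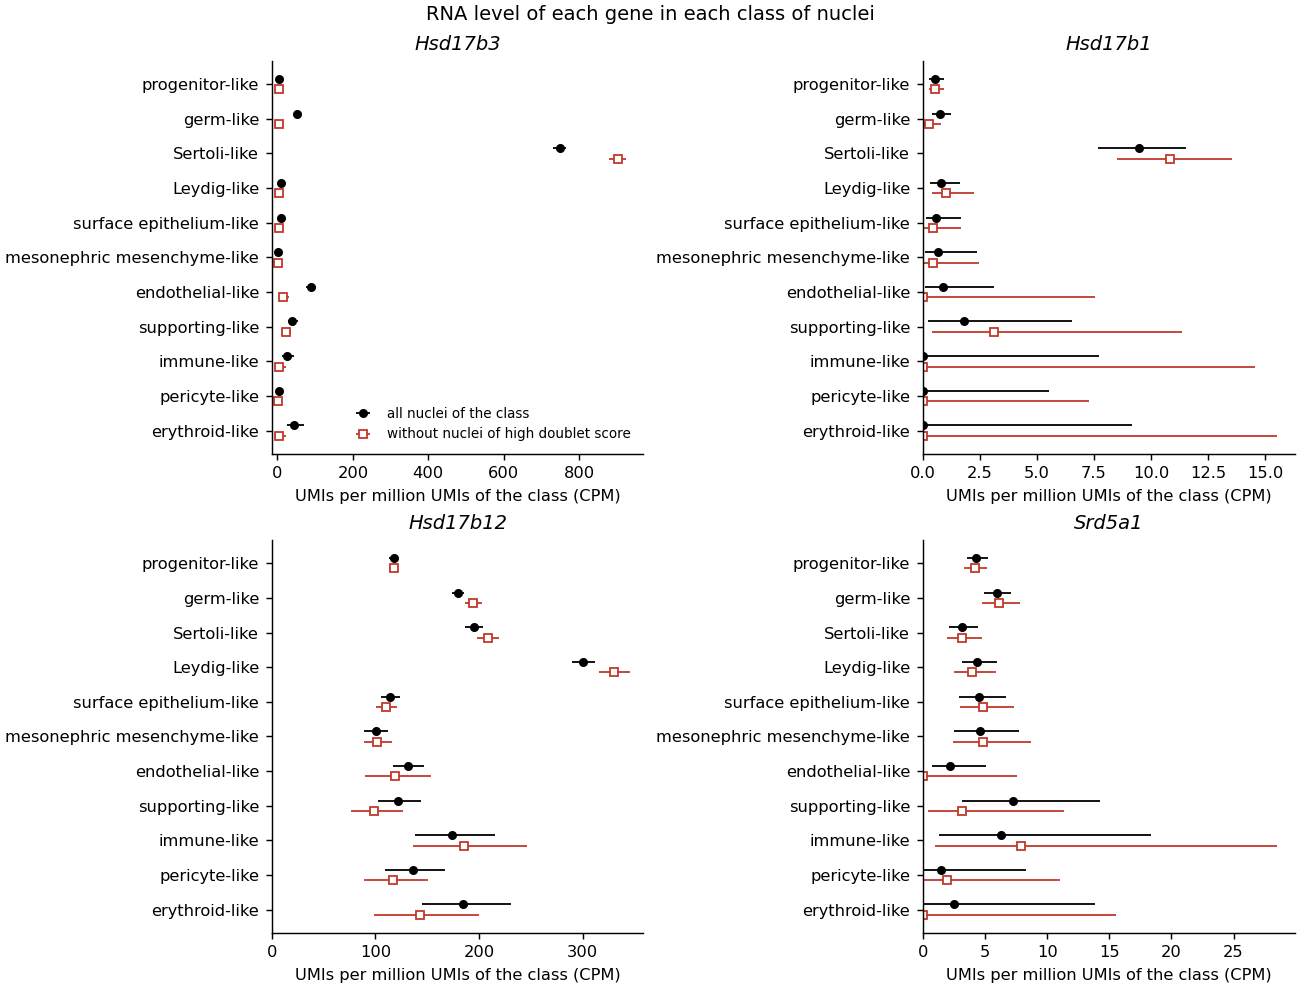
RNA level (CPM, linear axis from 0 or just below) of the 4 genes in the 11 classes, with exact 95% Poisson intervals as bars. Black circles use all nuclei of a class and open red squares leave out nuclei of high doublet score. With all nuclei *Hsd17b3* stands at 749 CPM in Sertoli-like nuclei and between 2.64 and 88.6 elsewhere, *Hsd17b12* lies between 100.3 and 301 CPM in every class, and *Srd5a1* is at or below 7.21 CPM in all.

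Nucleus by nucleus the separation was nearly complete. Of 839 Sertoli-like nuclei, 15 had no *Hsd17b3* UMI, the median was 8 UMIs, the 10th and 90th percentiles were 2 and 18, and the highest was 45. At least 1 UMI was found in 98.2% of Sertoli-like nuclei (97.1 to 99.0), 3.78% of Leydig-like nuclei (2.56 to 5.35), 2.93% of progenitor-like nuclei (2.38 to 3.56) and 11.1% of the germ-like class (9.23 to 13.3, median depth 15521 UMIs). With depth made equal at 2000 UMIs per nucleus (75 shallower nuclei were left out), the shares were 73.0% (69.8 to 76.0), 0.632% (0.206 to 1.47), 0.682% (0.428 to 1.03) and 3.38% (2.34 to 4.71), and the germ-like share without nuclei of high doublet score was 0.135% (0.00341 to 0.748). The Leydig-like share without them was 0.472% (0.0975 to 1.37), an interval that overlaps that of the background class. In Leydig-like nuclei the 10 nuclei with most *Hsd17b3* held 76.7% of the 86 UMIs, and 23 of the 30 nuclei with any had 1 UMI.

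**Figure D2:**
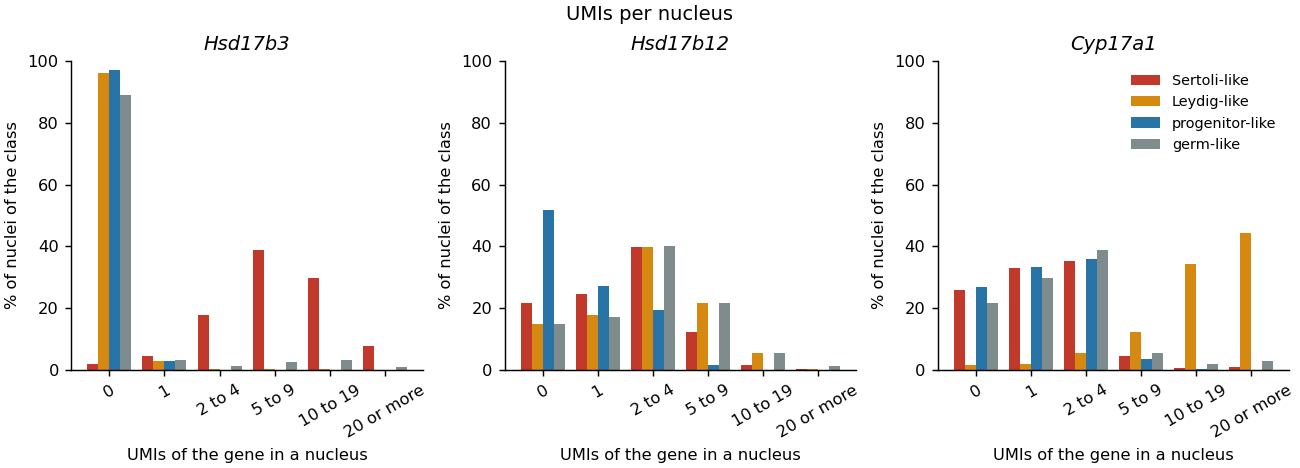
Share of nuclei (%, y) by the number of UMIs of *Hsd17b3*, *Hsd17b12* and *Cyp17a1* in the nucleus (x), for 4 classes, before thinning. For *Hsd17b3* 1.79% of Sertoli-like nuclei are at 0 against 96.2% (Leydig-like), 97.1% (progenitor-like) and 88.9% (germ-like) in the other classes, whereas for *Hsd17b12* all 4 classes hold nuclei across the lower bins.

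The low counts of *Hsd17b3* outside Sertoli-like nuclei were set beside those of a second Sertoli gene. *Fshr*, the receptor for follicle-stimulating hormone and a leading gene of the Sertoli-like cluster, was chosen for this after its values were seen. Without nuclei of high doublet score, *Hsd17b3* had 3.09 UMIs per *Fshr* UMI in Sertoli-like nuclei (2.94 to 3.25, 6345 against 2051 UMIs). The same quotient was 2.45 in progenitor-like (1.62 to 3.80, 81 against 33), 2.91 in germ-like (1.43 to 6.40, 32 against 11) and 2.88 in Leydig-like nuclei (1.24 to 7.43, 23 against 8), so these 4 classes held both genes at overlapping quotients. How much free RNA in the droplets gave to these counts was not tested. Endothelial-like nuclei had 0.538 (0.182 to 1.45, 7 against 13). This interval lay below the Sertoli-like and progenitor-like ones but overlapped the germ-like and Leydig-like ones. In supporting-like nuclei 14 UMIs stood against 1. Against the summed 7 Sertoli markers, some of which other classes also express, *Hsd17b3* had 112 UMIs per 100 marker UMIs in Sertoli-like nuclei and between 1.18 and 21.9 in the other classes.

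Within the Sertoli-like class the level of *Hsd17b3* moved with doublet score. A finer clustering of all nuclei, in which the class did not hold exactly the same nuclei, gave Sertoli-like clusters of 265 and 575 nuclei, of which the smaller had 7.47-fold more *Top2a*, a gene of dividing cells. *Hsd17b3* in the smaller cluster was 0.745-fold that in the larger (0.711 to 0.780), and 0.952-fold (0.902 to 1.004) without nuclei of high doublet score. When Sertoli-like nuclei were ranked by their *Hsd17b3* rate, the 280 lowest held 86 nuclei of high doublet score, the middle 280 held 40 and the highest 279 held 7.

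*Hsd17b1* was a much rarer transcript with the same leading class. Sertoli-like nuclei had 9.47 CPM (7.68 to 11.6, 97 UMIs), or 68.8% of its UMIs, against 0.787 CPM in Leydig-like (0.316 to 1.62, 7 UMIs), 0.737 in germ-like (0.412 to 1.22, 15 UMIs) and 0.544 in progenitor-like nuclei (0.290 to 0.930, 13 UMIs). The ratio of Sertoli-like to Leydig-like nuclei was 12.0 (5.63 to 30.7), and 180 of 11116 genes had a higher one. *Hsd17b1* passed the minimum of 100 UMIs for this ranking only through its Sertoli-like UMIs. The other 7 classes held 0 to 3 UMIs each. Without nuclei of high doublet score the Sertoli-like level was 10.8 CPM (8.52 to 13.5), the ratio 10.5 (4.61 to 29.5) and the germ-like level 0.271 CPM (0.0559 to 0.793, 3 UMIs).

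A UMI of *Hsd17b1* was seen in 10.97% of Sertoli-like nuclei (8.93 to 13.3), 0.882% of Leydig-like (0.355 to 1.81) and 1.33% of germ-like nuclei (0.709 to 2.26). At 2000 UMIs per nucleus these were 2.51% (1.56 to 3.81), 0.253% (0.0306 to 0.910) and 0 of 977 (0 to 0.377), where 3 nuclei would be 0.307%. No Sertoli-like nucleus held more than 2 UMIs. Nuclei with both *Hsd17b3* and *Hsd17b1* were 1.79% of thinned Sertoli-like nuclei (1.01 to 2.94), and 1.83% would be found if the genes were detected independently, so at this depth a difference from independence was not detectable. In the ranking by *Hsd17b3* rate, *Hsd17b1* was 6.83 CPM (4.57 to 9.80) in the lowest 280 nuclei, 11.2 (7.81 to 15.4) in the middle 280 and 11.6 (7.91 to 16.3) in the highest 279, with overlapping intervals.

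*Hsd17b12* was read in every class and led in Leydig-like nuclei. The Leydig-like level of 301 CPM (289 to 312, 2675 UMIs) was 1.54-fold the Sertoli-like 195 (187 to 204), with an interval of 1.45 to 1.63, and 2.56-fold the progenitor-like 118 (2.42 to 2.70). Sertoli-like, erythroid-like (184, 145 to 231), germ-like (180, 174 to 185) and immune-like levels (174, 138 to 215) followed, of which only the Sertoli-like and germ-like intervals did not overlap. Pericyte-like, endothelial-like, supporting-like, progenitor-like and surface epithelium-like nuclei lay between 136 and 114 CPM, and mesonephric mesenchyme-like nuclei had the lowest level, 100.3 (89.4 to 112). The order of Leydig-like, Sertoli-like and germ-like nuclei was kept without nuclei of high doublet score, at 330, 208 and 195 CPM. The Sertoli-like (198 to 219) and germ-like intervals (186 to 203) then overlapped, with a ratio of 1.07 (1.001 to 1.14). Thinned shares of nuclei with a UMI ran from 41.6% in Leydig-like (38.1 to 45.1) over 32.2% in both Sertoli-like and germ-like nuclei to 17.8% in surface epithelium-like nuclei (14.7 to 21.2).

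*Srd5a1* was low throughout and had no class whose interval lay above all others. Levels ran from 1.49 CPM (1 UMI) in pericyte-like to 7.21 (8 UMIs) in supporting-like nuclei, of which 3.14 (2 UMIs) remained without nuclei of high doublet score. Leydig-like nuclei had 4.38 CPM (3.12 to 5.99, 39 UMIs), progenitor-like 4.31 (3.52 to 5.23, 103 UMIs) and Sertoli-like 3.12 (2.14 to 4.41, 32 UMIs), and the ratio of Sertoli-like to Leydig-like nuclei was 0.713 (0.432 to 1.17). Germ-like nuclei had 5.94 CPM (4.93 to 7.10, 121 UMIs), 1.90-fold the Sertoli-like level (1.28 to 2.90). At 2000 UMIs per nucleus a UMI was found in 0.718% of Sertoli-like (0.264 to 1.56), 0.759% of Leydig-like nuclei (0.279 to 1.64), 0.775% of progenitor-like nuclei (0.502 to 1.14) and 1.54% of the germ-like class (0.862 to 2.52). Among progenitor-like nuclei, the cluster rich in *Top2a* (12.6-fold) had 1.79-fold more *Srd5a1* than the other cluster (1.19 to 2.69), while *Hsd17b12* was even between them (1.002, 0.925 to 1.08).

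Setting the 4 genes beside the rest of the pathway, 2 of the 3 with at least 100 UMIs over both classes were 4-fold or more higher in Sertoli-like than in Leydig-like nuclei, and 5.2% of 11116 genes were. These 2, *Hsd17b3* and *Hsd17b1*, passed that minimum only through Sertoli-like nuclei, as they had 86 and 7 Leydig-like UMIs. The upstream steps lay on the other side. Of 10 genes that bring in cholesterol or carry it to androstenedione, 9 had enough UMIs and 7 were 4-fold or more higher in Leydig-like nuclei, where 4.06% of all genes were. The median log2 ratio of Sertoli-like over Leydig-like was -3.56 for these 9 and 0.06 over all genes. *Star*, which brings cholesterol into the mitochondrion, had 276 CPM in Leydig-like and 15.5 in Sertoli-like nuclei. *Scarb1*, a receptor for lipoprotein cholesterol, had 1204 against 102, *Cyp11a1* 1168 against 46.0, *Fdx1*, its electron donor, 717 against 33.2, and *Hsd3b1* 987 against 39.4. *Cyp17a1*, which makes androstenedione, had 1740 CPM against 152, an 11.5-fold difference (10.9 to 12.1), and *Por*, its electron donor, 219 against 31.8.

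The Sertoli-like levels of these upstream genes were set beside those of germ-like and progenitor-like nuclei. Germ-like nuclei had 149 CPM of *Cyp17a1* and progenitor-like nuclei 205, and *Star* stood at 22.9 and 19.2 CPM there. The germ-like levels moved with nuclei of high doublet score, without which *Star* was 10.7 CPM. For *Cyp11a1* the Sertoli-like over germ-like ratio went from 0.734 (0.659 to 0.816) to 1.54 (1.29 to 1.84) without them, and for *Hsd3b1* from 0.785 (0.698 to 0.882) to 1.52 (1.27 to 1.83). Of the 9 upstream genes, 0 were 4-fold apart between Sertoli-like and progenitor-like nuclei in either direction, against 5.3% and 5.11% of 12387 genes. At these shares, a count of 0 among 9 genes gives no result about them. Of the same 9, 8 were 4-fold or more higher in Leydig-like than in progenitor-like nuclei (4.53% of 12241 genes). The upstream genes that passed no 4-fold limit between Leydig-like and Sertoli-like nuclei were *Fdxr*, the reductase of *Fdx1*, with 214 against 99.5 CPM, and *Cyb5a*, which aids the lyase reaction of *Cyp17a1*, with 53.6 against 44.3. *Fdxr* was 31.7 CPM in progenitor-like and 21.1 in germ-like nuclei, or 7.87 in the latter without nuclei of high doublet score. *Hsd3b6* had 1 UMI in Sertoli-like and 3 in Leydig-like nuclei. Of the 4 genes themselves, *Hsd17b3* and *Hsd17b1* were 4-fold or more higher in Sertoli-like than in progenitor-like nuclei, and 0 of the 3 with enough UMIs were 4-fold higher or lower in Leydig-like than in progenitor-like nuclei, against 4.53% and 3.55% of 12241 genes. At the latter shares, 0 of 3 genes gives no result. Against progenitor-like nuclei too, *Hsd17b1* had enough UMIs only through Sertoli-like nuclei.

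**Figure D3:**
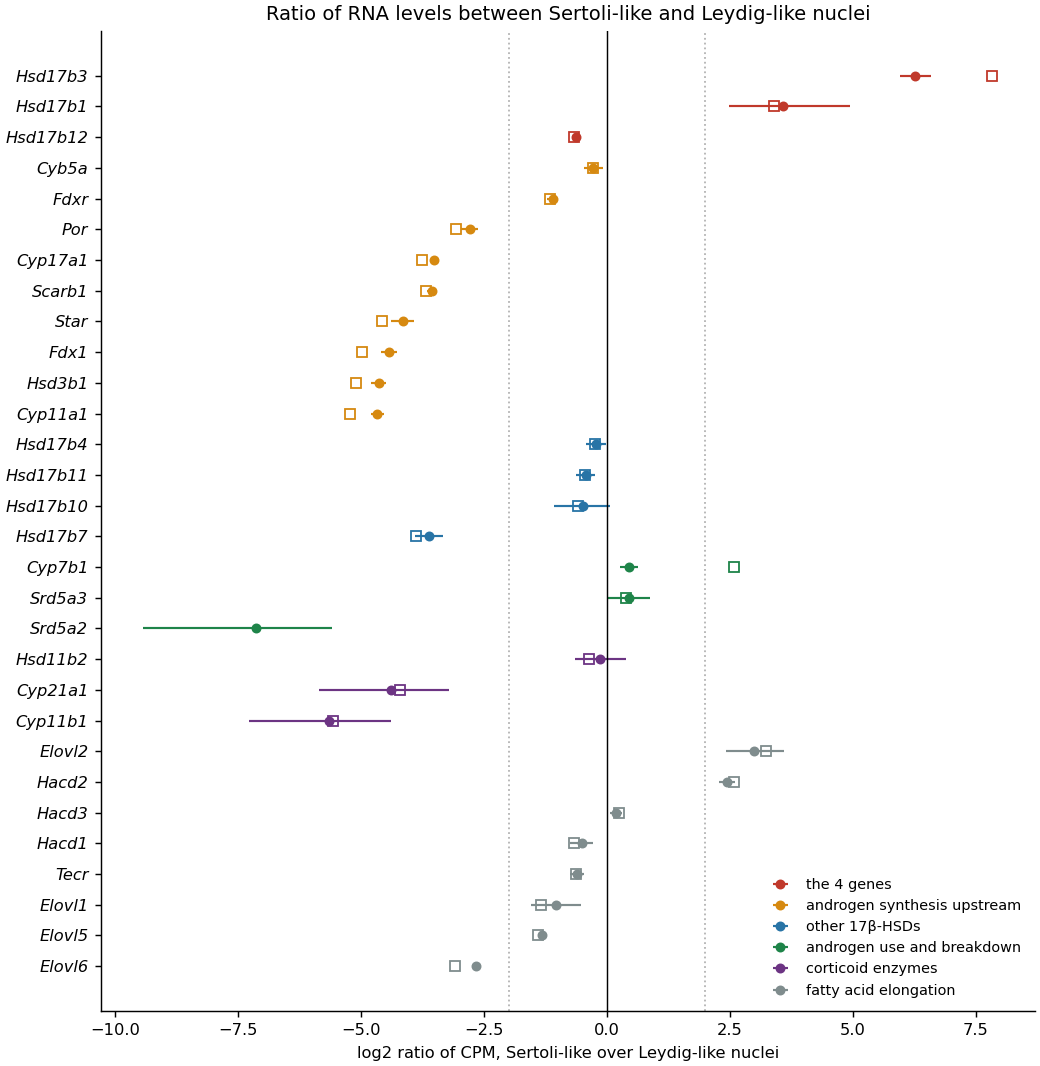
Log2 ratio of CPM, Sertoli-like over Leydig-like nuclei (x), for the reported genes of the lists with at least 100 UMIs over both classes, grouped by list and colour; circles use all nuclei with exact 95% intervals as bars, open squares leave out nuclei of high doublet score, and dotted lines mark 4-fold. *Hsd17b3* and *Hsd17b1* lie right of the dotted line and 7 of 9 upstream genes left of the other one; the open square of *Srd5a2* is missing because no UMI remained in Sertoli-like nuclei.

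Of 9 other listed members of the 17β-hydroxysteroid dehydrogenase family found in the matrix by symbol, 4 had enough UMIs. Of these, 0 were 4-fold or more higher in Sertoli-like and 1 in Leydig-like nuclei, against 5.2% and 4.06% of all genes, and at these shares so few genes give no result about the family. *Hsd17b7*, which also serves cholesterol synthesis, was 143 CPM in Leydig-like against 11.7 in Sertoli-like nuclei, 12.2-fold higher (10.1 to 14.9). *Hsd17b4*, a peroxisomal enzyme of fatty acid breakdown (41.2 CPM in Sertoli-like, 48.0 in Leydig-like), *Hsd17b11* (41.6 and 56.1) and *Hsd17b10* (4.78 and 6.74) were within 2-fold. The remaining 5 (*Hsd17b2*, *Hsd17b6*, *Hsd17b13*, *Hsd17b14* and *Akr1c6*) had 0 to 6 UMIs in each of these classes, Sertoli-like and Leydig-like.

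Of the 5α-reductases, *Srd5a2* was the one with a leading class. It had 368 UMIs (41.3 CPM) in Leydig-like nuclei against 3 (0.293 CPM) in Sertoli-like nuclei, a ratio of 141 (47.9 to 688), and 0.335 CPM in progenitor-like and 1.62 in germ-like nuclei. Without nuclei of high doublet score, 96.0% of its 300 UMIs lay in Leydig-like and 0 in Sertoli-like nuclei, and the germ-like level was 0.271 CPM (3 UMIs). *Srd5a3*, which serves protein glycosylation, had 11.6 CPM in Sertoli-like and 8.54 in Leydig-like nuclei. Of the 9 listed genes of androgen use and breakdown, 4 had enough UMIs, 0 were 4-fold higher in Sertoli-like and 1 (*Srd5a2*) in Leydig-like nuclei, against 5.2% and 4.06% of all genes. *Srd5a2* had enough UMIs only through Leydig-like nuclei. *Cyp7b1*, which hydroxylates androgen metabolites, moved with nuclei of high doublet score, from 1.37-fold higher in Sertoli-like than Leydig-like nuclei (1.21 to 1.56) to 6.04-fold (4.16 to 9.03). *Akr1c14*, a 3α-hydroxysteroid dehydrogenase, had 47 UMIs in Sertoli-like and 11 in Leydig-like nuclei, of which 3 were outside nuclei of high doublet score. *Cyp19a1*, the aromatase that makes estrogens, had 1 and 10 UMIs.

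Among corticoid enzymes, 3 of 5 had enough UMIs and 2 were 4-fold or more higher in Leydig-like nuclei, against 4.06% of all genes. *Cyp11b1*, the 11β-hydroxylase, was 24.4 against 0.488 CPM (217 against 5 UMIs), and *Cyp21a1*, the 21-hydroxylase, 12.2 against 0.586 (109 against 6). Both had enough UMIs only through Leydig-like nuclei. *Hsd11b2* was at 7.08 against 6.44 CPM. In fatty acid elongation, where *Hsd17b12* supplies the ketoacyl reductase step, 8 of 12 genes had enough UMIs, 2 were 4-fold or more higher in Sertoli-like and 1 in Leydig-like nuclei, against 5.2% and 4.06% of all genes. With so few genes, none of these counts describes a list as a whole. *Elovl2*, an elongase of polyunsaturated fatty acids, was 24.99 CPM in Sertoli-like against 3.15 in Leydig-like nuclei, *Hacd2*, a dehydratase, 221 against 40.3, and *Elovl6*, an elongase of saturated fatty acids, 123 against 779. *Elovl2* had enough UMIs only through Sertoli-like nuclei. *Tecr*, the final reductase, was 67.4 against 103 CPM, close in its ratio to *Hsd17b12*.

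Genes with the most similar profile over the 10 classes of at least 50 nuclei were found by Pearson's r of log2(CPM + 1) among 6955 genes, as a description in which all classes share 1 library. For *Hsd17b3* these were *Gm10863* (r = 0.986), *Dtna* (0.974) and *Fstl4* (0.974), at 169, 1209 and 244 CPM in Sertoli-like and 1.80, 16.6 and 12.7 in Leydig-like nuclei. All 3 are also leading genes of the Sertoli-like cluster. For *Hsd17b1* they were *Prrc2c* (0.953), *Phf8*, a histone demethylase (0.952), and *Zc3h7b* (0.945). Their levels were 942, 418 and 317 CPM in Sertoli-like and 640, 99.6 and 52.5 in Leydig-like nuclei. The profile of *Hsd17b1* rests on 0 to 97 UMIs per class. For *Hsd17b12* they were *Mier1* (0.966), *Psmd1* (0.956) and *Dnajc11* (0.946), and for *Srd5a1* *Bicral* (0.865), *Vps35* (0.858) and *Rps13* (0.836). The profile of *Srd5a1* rests on 1 to 121 UMIs per class, and without nuclei of high doublet score its r with *Vps35* was 0.544 and with *Rps13* 0.516. Without these nuclei r was 0.842 for *Hsd17b3* with *Dtna* and 0.844 for *Hsd17b1* with *Zc3h7b*.

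Within 1 kb of the gene starts, chromatin differed between Sertoli-like and Leydig-like nuclei at *Hsd17b3* and *Hsd17b1*. No peak lay within 1 kb of the *Hsd17b3* or *Hsd17b1* start, so fragments with an end within 1 kb were counted. At *Hsd17b3* there were 24 in Sertoli-like nuclei (5.47 per 1000000 fragments of the class, 3.50 to 8.14), 2 in Leydig-like (0.616, 0.0745 to 2.22), 17 in progenitor-like (1.04, 0.607 to 1.67) and 6 in germ-like nuclei (0.778, 0.286 to 1.69). The Sertoli-like rate was 8.89-fold the Leydig-like (2.21 to 77.6) and 5.25-fold the progenitor-like (2.71 to 10.4). The former ratio rests on 2 Leydig-like fragments, and it was 15.9 (2.59 to 656) without nuclei of high doublet score and 4.27 (1.48 to 16.8) with no removal of doublets. At *Hsd17b1* there were 47 in Sertoli-like (10.7, 7.87 to 14.2) and 8 in Leydig-like nuclei (2.46, 1.06 to 4.85), a ratio of 4.35 (2.04 to 10.7), and germ-like (2.46, 1.48 to 3.85) and progenitor-like rates (1.65, 1.09 to 2.41) overlapped the Leydig-like interval. The germ-like rates without nuclei of high doublet score were 0.461 at *Hsd17b3* (2 fragments) and 1.38 at *Hsd17b1* (6 fragments). The difference was not seen when cuts in peaks within 5 kb were used instead, with ratios of 1.70 (0.965 to 3.09) for *Hsd17b3* and 1.04 (0.785 to 1.38) for *Hsd17b1*. None of these peaks covers a start, so they do not measure the same stretch. The *Hsd17b1* value comes from a single peak over an exon of *Coasy*. That of *Hsd17b3* pools an intronic peak (3.84, 1.29 to 15.4) with an intergenic one (1.13, 0.558 to 2.33).

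The starts of *Hsd17b12* and *Srd5a1* were open in all large classes. Each lay in a peak, chr2:94157647-94158544 and chr13:69611211-69612108, the latter shared with the start of *Nsun2*. The *Hsd17b12* start had 174 fragments in Sertoli-like (39.7 per 1000000) and 129 in Leydig-like nuclei (39.7), and the cuts of its peak gave a ratio of 1.02 (0.862 to 1.22). At *Srd5a1* the rates were 36.7 in Sertoli-like (161 fragments) and 35.4 in Leydig-like nuclei (115), and its peak gave 1.09 (0.912 to 1.32). By fragments, the Sertoli-like over Leydig-like ratio at the *Hsd17b12* start was 0.999 (0.791 to 1.26), while its RNA was 0.649-fold (0.612 to 0.688). Intervals on peak cuts are too narrow, because most fragments bring a pair of cuts.

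**Figure D4:**
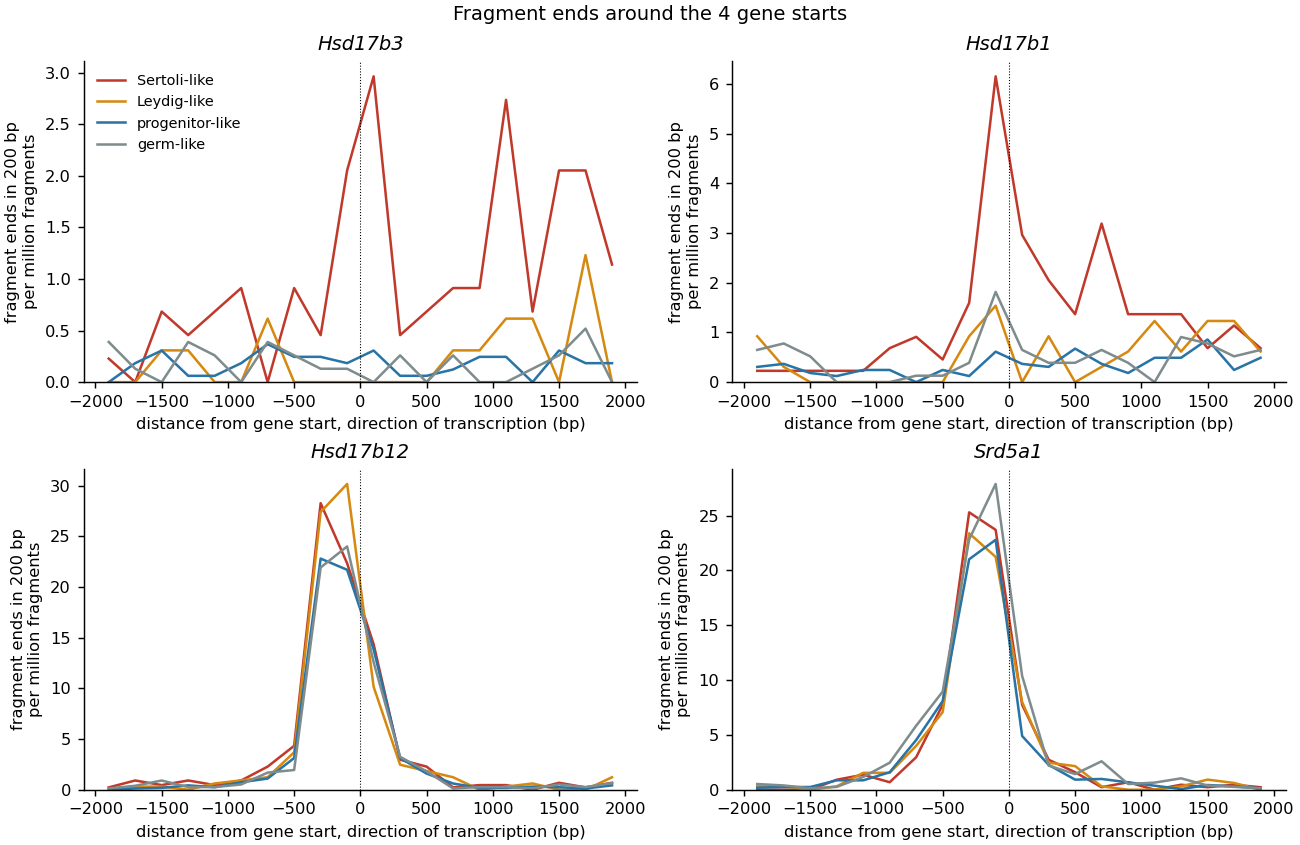
Fragment ends per 200 bases and per 1000000 fragments of the class (y, linear, a different range in each panel) by distance from the gene start in the direction of transcription (x, bases), for 4 classes. *Hsd17b12* and *Srd5a1* show a shared summit in all 4 classes, and at *Hsd17b3* and *Hsd17b1*, at far lower rates, the Sertoli-like line stands above the others near the start, resting on 24 and 47 fragments.

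Away from the start, *Hsd17b3* had 9 peaks within 50 kb, all with at least 20 cuts over both classes. Of these, 5 were 2-fold or more higher in Sertoli-like and 1 in Leydig-like nuclei, against 19.3% and 14.2% of 63545 peaks. Among the 5, chr13:64108079-64108914 lay over an exon of *Slc35d2*, 19.3 kb upstream of the start (4.45, 1.70 to 14.7). Without nuclei of high doublet score the ratio of 1 of the 5, chr13:64087384-64087893, went from 3.84 (1.29 to 15.4) to 1.9995 (0.592 to 8.61), below 2-fold. The 5 peaks inside the gene were another set, with chr13:64063950-64064874 in place of chr13:64108079-64108914. They summed to 75.8 cuts per 1000000 in Sertoli-like nuclei (66.3 to 86.3, 229 cuts), 20.7 in Leydig-like (15.3 to 27.5, 48 cuts), 15.5 in progenitor-like (13.4 to 17.9) and 15.2 in germ-like nuclei (11.8 to 19.2). At least 1 cut in them was seen in 13.2% of the Sertoli-like class, while the Leydig-like share was 3.15%, the progenitor-like 2.99% and the germ-like 3.47%. The intronic peak chr13:64074397-64075401, 14.3 kb past the start, had the largest ratio with all nuclei, with 51 cuts against 3 (13.0, 4.22 to 65.3), though progenitor-like (6.60 per 1000000), surface epithelium-like (10.2) and immune-like nuclei (21.8, from 4 cuts) were also cut there. The intronic peak chr13:64081930-64082672, 6.93 kb past the start, had 85 cuts against 6 (10.9, 4.79 to 30.5), and its Sertoli-like rate of 28.1 per 1000000 stood against 1.77 in progenitor-like and 2.39 in germ-like nuclei. Without nuclei of high doublet score the order changed, to 13.5 (5.04 to 50.7) for the peak at 6.93 kb, 10.2 (1.55 to 430) for the intronic peak chr13:64081265-64081804 and 8.97 (2.84 to 45.5) for that at 14.3 kb, with overlapping intervals. With all nuclei the ratio of chr13:64081265-64081804 was 3.45 (1.14 to 14.0). The peak chr13:64063950-64064874, over an exon, had a Sertoli-like to Leydig-like ratio of 1.36 (0.861 to 2.19), from 18.2 and 13.4 cuts per 1000000, against 3.46 in progenitor-like and 3.91 in germ-like nuclei. In the other direction, chr13:64099918-64100729 in an intron of *Slc35d2* was 2.45-fold higher in Leydig-like nuclei (1.32 to 4.71).

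**Figure D5:**
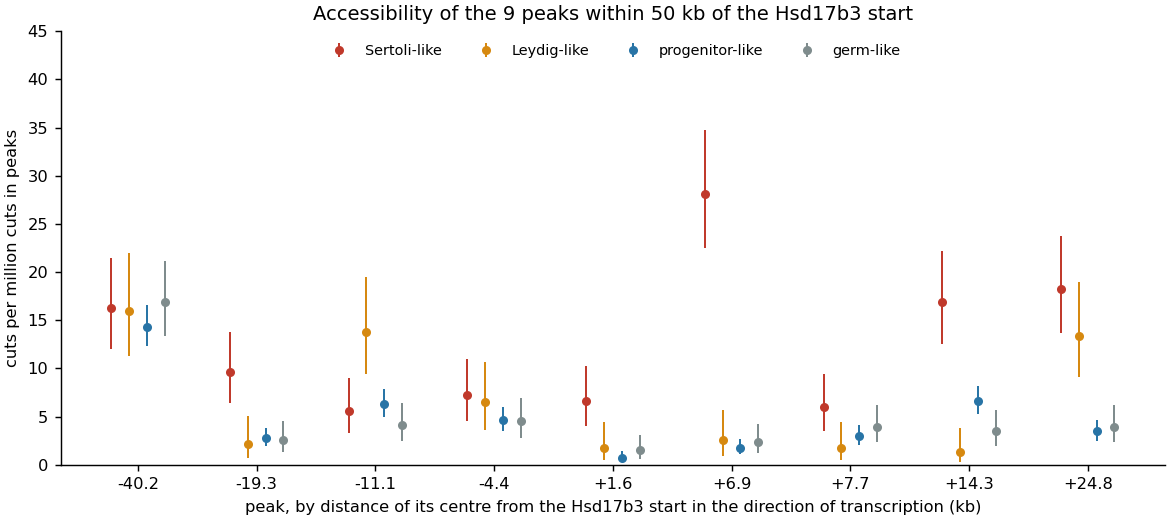
Cuts per 1000000 cuts in peaks (y, linear from 0) in 4 classes for the 9 peaks around *Hsd17b3*, ordered by distance from its start in the direction of transcription (x, kb, negative upstream), with exact 95% Poisson intervals as bars. The Sertoli-like point at 6.93 kb past the start, 28.1, is the highest and the other 3 classes stay at or below 2.59 there.

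The central 300 bases of a pair of intronic peaks, chr13:64074749-64075048 and chr13:64082151-64082450 of GRCm38.p6, are shown because they had the largest Sertoli-like to Leydig-like ratios, with all nuclei, which alone set the choice. They are written 5′ to 3′ on the minus strand, that of *Hsd17b3*, and capitals mark matches to the 5 motifs named above, on either strand.
Intron peak at 14.3 kb: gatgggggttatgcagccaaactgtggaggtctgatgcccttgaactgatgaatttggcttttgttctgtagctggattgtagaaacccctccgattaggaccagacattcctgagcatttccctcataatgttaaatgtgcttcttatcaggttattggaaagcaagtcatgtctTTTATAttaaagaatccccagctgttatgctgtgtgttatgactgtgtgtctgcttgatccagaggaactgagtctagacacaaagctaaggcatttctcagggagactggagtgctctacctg
Intron peak at 6.93 kb: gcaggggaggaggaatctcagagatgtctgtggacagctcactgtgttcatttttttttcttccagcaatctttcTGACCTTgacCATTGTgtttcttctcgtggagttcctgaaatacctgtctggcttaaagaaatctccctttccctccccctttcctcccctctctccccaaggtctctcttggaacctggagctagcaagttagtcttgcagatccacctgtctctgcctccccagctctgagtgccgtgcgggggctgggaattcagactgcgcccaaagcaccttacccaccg

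The peak at 6.93 kb held 1 AAGGTCA, read as TGACCTT on the printed strand, and 1 ACAATG, read as CATTGT, 3 bases further on. Of the central 300 bases of 109175 peaks, 10.8% held AAGGTCA and 12.6% ACAATG. The peak at 14.3 kb held 1 TATAAA, read as TTTATA, which 12.9% of peaks held. Neither held AGATAA (17.3%) or GGGCGG (19.5%). These are matches of letters and not shown to be sites of binding.

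The other 3 genes had 10 (*Hsd17b1*), 3 (*Hsd17b12*) and 2 peaks (*Srd5a1*) within 50 kb with at least 20 cuts over both classes. None was 2-fold or more higher in Sertoli-like nuclei, against 19.3% of 63545 peaks. In Leydig-like nuclei 1 was, near *Hsd17b1*, against 14.2%. At these shares, so few peaks give no result about the 3 genes. The intronic *Hsd17b12* peak chr2:94122320-94123105 fell short of the minimum of 20 cuts, with 12 cuts against 2 (4.60, 1.02 to 42.4). *Hsd17b1* lies among many genes, and of 10 peaks near it the highest Sertoli-like ratio was 1.97 (1.39 to 2.83), at chr11:101063450-101064386 over an exon of *Atp6v0a1*, or 2.16 (1.41 to 3.38) without nuclei of high doublet score. The intergenic peak chr11:101064798-101065708, 13.2 kb upstream of *Hsd17b1*, was 2.99-fold higher in Leydig-like nuclei (1.88 to 4.89, 62 cuts against 27). For *Hsd17b12* the intronic peak chr2:94144869-94145780 had the highest ratio among its 3 peaks with enough cuts (1.43, 0.717 to 2.95), and chr2:94178470-94179351 over an exon of *Mir670hg* was 1.53-fold higher in Leydig-like nuclei (0.985 to 2.37). *Srd5a1* had a second peak, chr13:69655165-69656067, with a ratio of 1.28 (0.595 to 2.87), or 0.509 (0.164 to 1.48) without nuclei of high doublet score.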

How the data were processed

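Nuclei of E14.5 mouse testis were read in 1 RNA and 1 ATAC library of the 10x multiome kit. The authors ran Cell Ranger ARC 2.0.1 on mm10 (GRCm38), per the labels, and deposited raw counts: gene UMIs and peak cuts of 9833 barcodes (122049390 UMIs and 38243814 cuts in 109215 peaks called over all nuclei together), and a list of 58448458 unique fragments. No filter on quality, doublets or free RNA had been applied.

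The quality limits of the study were applied: mitochondrial and ribosomal protein UMIs below 10% each, haemoglobin below 0.5%, more than 500 genes, and between 250 and 25000 fragments at peaks that made up more than 20% of all. Its blacklist filter was left out. Of 7668 nuclei, 470 (6.13%, or 0.8% per 1000) were removed as doublets by Scrublet rank in scanpy 1.11.5. The automatic threshold marked 1393, and values without the 923 left among kept nuclei were added after seeing the data. No gene of interest was held out of the doublet scores. Free RNA was not removed.

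Clusters were made with Seurat 5.3.0 (R 4.3.3) by weighted nearest neighbours at resolution 0.3, over 2000 variable genes and 30 components. To keep the genes compared out of the classes, 49 genes and 25 peaks within 50 kb of a member start were held out. A cluster was named for the class with the highest mean z score of its markers. The neural crest list was left out of naming after the data were seen (*Sox10* had 173 UMIs). The 4 genes, the pathway lists and the markers were chosen with earlier results of these data known. Genes were matched by symbol, and 1 of 46 listed genes, *Hsd17b8*, had no row under that symbol.

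Class sums of UMIs were scaled to the sum of the class (CPM). As nuclei do not replicate the library, p-values were not computed. Levels have exact Poisson, shares exact Clopper-Pearson and ratios exact conditional binomial intervals (scipy 1.17.1). All are 95% intervals for counting error only. Only the ratio intervals were checked on simulated counts. These were Poisson class sums, which leave out the uneven spread of UMIs over nuclei. Calls needed a 4-fold ratio and 100 UMIs in the pair of classes for genes, and a 2-fold ratio and 20 cuts for peaks. Peaks within 1 kb of a gene start were to give the promoter value; as *Hsd17b3* and *Hsd17b1* have none, fragments with an end in that window were used for them. Named were the 4 genes, the pathway lists, for each gene the 3 with the highest correlation among genes with at least 100 UMIs and 50 CPM in their highest class, and for each gene the peaks at the start and with the largest ratio in each direction. *Fshr*, *Top2a* and the second *Hsd17b3* intron peak were chosen after their values were seen. Gene positions are from GENCODE M21 and sequences from RefSeq, both on GRCm38. Of the listed genes, 1 is not reported here.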

Additional observations from a re-analysis of the deposited data

How the results depend on the processing

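With 1 library per assay, values rest on counting error within that library, and no replicate could be left out. No paired analysis was possible because there is 1 sample per assay and no groups of samples. Of the Sertoli-like over Leydig-like ratios of the 4 genes, none whose interval excluded 1 changed direction under the other clusterings, doublet removals, depth minimums or weightings run. Ratios to germ-like nuclei were not as stable. With class nuclei over the automatic doublet threshold left out (added after seeing the data), Leydig-like over germ-like for *Hsd17b3* went from 0.185 (0.147 to 0.231) to 1.36 (0.762 to 2.40), and Sertoli-like over germ-like went from below to above 1 for *Cyp11a1* and *Hsd3b1*, and to intervals that include 1 for *Star* (1.27, 0.956 to 1.67) and *Fdx1* (1.08, 0.891 to 1.31). For *Hsd17b3* RNA the Sertoli-like over Leydig-like ratio of 77.5 became 51.8 with clusters from ATAC alone, 228 with doublets removed at the automatic threshold, 229 with class nuclei over that threshold left out (added after seeing the data), 138 as a mean over nuclei and 214 in thinned nuclei. The share of its Leydig-like UMIs in nuclei over that threshold was 73.3%, and the gene was not held out of the doublet score. Subtracting the germ-like level turned *Hsd17b1* from 12.0 to 176 and *Hsd17b12* from 0.649 to 0.128, which follows from smaller denominators and numerators, and it gave no value for *Hsd17b3* and *Srd5a1*, whose germ-like level exceeded that of Leydig-like nuclei. The ratio of fragments at the *Hsd17b3* start, 8.89, was 4.27 with no doublet removal and 15.2 with doublets removed at the automatic threshold. Peaks within 5 kb in place of fragments at the start gave 1.70 (0.965 to 3.09) for *Hsd17b3* and 1.04 (0.785 to 1.38) for *Hsd17b1*, both with intervals that include 1, where the window takes in other peaks. The genes past 4-fold, 578 higher in Sertoli-like and 451 in Leydig-like nuclei, became 937 and 726 with at least 20 UMIs and 1462 and 1067 at 2-fold. *Srd5a1* RNA ran from 0.629 to 0.946 over 9 alternatives. Depth limits *Hsd17b1* and *Srd5a1* most, with 7 and 39 UMIs in Leydig-like nuclei.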
